A study of Mus musculus with 15 samples.

Results

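The regions described here are stretches of the mouse genome that carried H3K4me3 in several livers. They lay wholly or partly inside gene bodies, away from transcription start sites (TSSs). The enriched stretches (peaks, which SICER2 calls islands) of 15 liver libraries were merged where they overlapped or touched, which gave 74158 merged regions. A region was retained if it had an island in at least 6 of the 15 libraries, overlapped the body of a GENCODE transcript, had no TSS of any annotated transcript within 1 kb, and had an island of 4000 bp or more in fewer than 5 libraries. These criteria left 791 intragenic regions among 12041 recurrent regions, beside 9332 regions at TSSs, 1799 intergenic regions and 119 intragenic regions with broad islands in 5 or more libraries. The limit on broad islands was not applied to the TSS and intergenic regions, which bears on every comparison with them. The 791 regions were thus chosen by measured values, namely the number of libraries with an island and the width of the islands, together with their position, and these are given only as a description. The diets of the mice played no part in the choice. At the limits of the rule, 314 intragenic regions had an island in exactly 5 libraries and 230 in exactly 6, and 31 recurrent intragenic regions had broad islands in exactly 4 libraries against 20 in exactly 5. The regions nearest to a TSS that were retained lay 1034 bp from a TSS of Frrs1 (6 libraries) and 1074 bp from a TSS of Zfp988 (9 libraries). The nearest that were left out lay 986 bp from a TSS of Nup160 (10 libraries) and 961 bp from a TSS of Gm13717 (15 libraries).

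The livers came from 15 C57BL/6 females (substrain C57BL/6J by the study's methods) of 6 litters that were allotted to 5 diets, with 3 mice and 3 libraries per diet. SD mice ate the standard diet ad libitum, and CR mice ate less of it. HF mice ate a high-fat diet ad libitum. RD mice ate a diet with purple corn, whose seeds are rich in anthocyanins, mainly cyanidin 3-O-glucoside, and YD mice ate a diet with yellow corn of a near-isogenic line without anthocyanins, both ad libitum. The diets started at 3 months of age and lasted 10 months, while the age label of all samples reads 12 months. H3K4me3 was measured by PAT-ChIP-seq, a form of chromatin immunoprecipitation for tissue that has been fixed in formalin and embedded in paraffin. No genetic change was made in any group. The labels do not say which mouse came from which litter.

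H3K4me3 is a trimethyl group on a lysine of the tail of histone H3, and is written by SET1 and MLL methyltransferase complexes. It is recruited to unmethylated CpG islands and concentrates around the TSSs of transcribed genes, where it is bound by the transcription factor TFIID and by chromatin remodelers. Enhancers inside genes carry mainly the monomethylated form, and trimethylation inside a gene is known from alternative promoters and from promoters that annotations lack.

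The libraries differed in how many islands they held, which bears on every count given here. The lists held 7825 (YD replicate 1) to 33752 islands (CR replicate 3), and the 2 longest, CR replicate 3 and RD replicate 2 with 32131, stood apart from the other 13, which did not exceed 23107. The depth recovered from the scores was 5589269 (CR replicate 1) to 15449854 reads (YD replicate 1), so the deepest library had the shortest list. The promoters of the hepatocyte markers Apob and Hnf4a had an island in 15 libraries each, and that of Alb in 8. In each single library, the promoters of 6 to 10 of 10 hepatocyte markers had an island. Those of 6 Kupffer cell, 6 sinusoidal endothelial, 6 stellate and 5 cholangiocyte markers had one for 0 to 3, 0 to 6, 0 to 4 and 0 to 3 genes, and those of 5 genes not expressed in liver for 0 or 1. In whole liver, fewer marked cells and less of the mark per cell cannot be told apart.

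The reference sequences of 8 regions show what lay under these islands. They include the regions of Chl1 and Cdk5rap2 (all 15 libraries, among the highest scores), Zfp600 (all 15 libraries) and Wwox (14 libraries, a very long host gene). The others are Camta1, Mrpl58, Tbc1d1 and Fbxl22, which are among the 10 regions with an unadjusted p under 0.05 between diets. Of the 31-base words at the centre of the region, 74.7% occur more than once in the genome for Zfp600. The values are 36.4% for Chl1 and 0.41% for Cdk5rap2. The Chl1 bases printed here hold a long stretch that recurs within them. Whether the bases of these 3 regions belong to a family of repeats was not tested. Each is the plus strand of mm10, 300 bases at the centre of the stretch covered by most libraries, with CG dinucleotides in capitals. None overlaps an untranslated region. The Mrpl58 bases lie past the end of the gene, at position 115412674, so they are not gene body sequence. RefSeq has 3 tRNA genes within 1 kb of the Mrpl58 region.
Chl1, chr6:103649051-103649350: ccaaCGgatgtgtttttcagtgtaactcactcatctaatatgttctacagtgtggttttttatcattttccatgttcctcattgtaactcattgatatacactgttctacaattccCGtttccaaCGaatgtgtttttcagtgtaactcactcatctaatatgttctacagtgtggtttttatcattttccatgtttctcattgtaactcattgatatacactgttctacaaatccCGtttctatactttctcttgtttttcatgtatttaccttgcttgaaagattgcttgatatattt
Cdk5rap2, chr4:70378051-70378350: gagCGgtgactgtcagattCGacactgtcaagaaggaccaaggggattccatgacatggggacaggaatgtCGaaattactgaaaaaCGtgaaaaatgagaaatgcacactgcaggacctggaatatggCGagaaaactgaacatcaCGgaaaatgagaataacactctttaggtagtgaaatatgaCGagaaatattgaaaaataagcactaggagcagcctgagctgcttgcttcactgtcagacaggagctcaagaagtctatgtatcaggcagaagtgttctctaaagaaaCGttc
Zfp600, chr4:146167751-146168050: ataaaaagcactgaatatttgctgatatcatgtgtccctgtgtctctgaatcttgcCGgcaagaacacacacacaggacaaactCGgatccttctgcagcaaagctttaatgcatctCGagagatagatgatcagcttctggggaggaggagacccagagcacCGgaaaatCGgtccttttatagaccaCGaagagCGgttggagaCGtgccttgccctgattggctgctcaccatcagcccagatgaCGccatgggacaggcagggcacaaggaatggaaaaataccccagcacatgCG
Wwox, chr8:115293351-115293650: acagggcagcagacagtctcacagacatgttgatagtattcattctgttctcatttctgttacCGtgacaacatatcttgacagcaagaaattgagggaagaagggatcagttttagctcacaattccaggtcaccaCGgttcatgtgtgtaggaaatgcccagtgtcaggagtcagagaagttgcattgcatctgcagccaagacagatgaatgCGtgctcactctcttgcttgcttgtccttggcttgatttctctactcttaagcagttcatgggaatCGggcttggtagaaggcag
Camta1, chr4:151614751-151615050: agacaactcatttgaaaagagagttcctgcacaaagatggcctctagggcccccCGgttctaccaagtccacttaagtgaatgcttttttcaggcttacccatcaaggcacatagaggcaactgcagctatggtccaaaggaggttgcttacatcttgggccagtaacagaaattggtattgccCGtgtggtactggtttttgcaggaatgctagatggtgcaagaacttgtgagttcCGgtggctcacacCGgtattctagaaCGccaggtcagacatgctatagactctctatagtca
Mrpl58, chr11:115413451-115413750: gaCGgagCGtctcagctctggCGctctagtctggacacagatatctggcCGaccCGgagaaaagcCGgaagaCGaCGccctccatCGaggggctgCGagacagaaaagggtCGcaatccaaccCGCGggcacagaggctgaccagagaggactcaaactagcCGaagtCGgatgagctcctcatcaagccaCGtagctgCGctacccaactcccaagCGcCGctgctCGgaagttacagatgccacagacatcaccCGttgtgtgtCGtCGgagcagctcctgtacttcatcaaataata
Tbc1d1, chr5:64343551-64343850: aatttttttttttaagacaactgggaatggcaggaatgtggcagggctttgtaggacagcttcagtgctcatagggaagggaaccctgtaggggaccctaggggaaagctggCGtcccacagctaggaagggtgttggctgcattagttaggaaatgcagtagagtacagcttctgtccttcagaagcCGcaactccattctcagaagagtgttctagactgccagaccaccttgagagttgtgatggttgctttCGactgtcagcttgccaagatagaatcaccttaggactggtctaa
Fbxl22, chr9:66512051-66512350: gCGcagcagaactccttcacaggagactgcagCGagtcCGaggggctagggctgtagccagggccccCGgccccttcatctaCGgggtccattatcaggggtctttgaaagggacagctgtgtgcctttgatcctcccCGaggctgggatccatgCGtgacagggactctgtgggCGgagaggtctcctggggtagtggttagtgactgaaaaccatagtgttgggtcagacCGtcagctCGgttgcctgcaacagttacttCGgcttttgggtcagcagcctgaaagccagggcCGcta
The Chl1, Wwox, Camta1 and Tbc1d1 sequences hold 4, 4, 5 and 3 CG dinucleotides, Cdk5rap2 holds 8 and Zfp600 holds 10. Fbxl22 holds 12 and Mrpl58 holds 23, the highest number of the 8.

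Most of the 791 intragenic regions were shared by few libraries. Widths of islands in a mouse are those of its widest island in the region. As many as 230 had an island in 6 libraries, 125 in 7 and 89 in 8, and the number fell to 23 in 14 libraries before rising to 34 in all 15. The median was 8 libraries, against 12 at TSSs and 7 for intergenic regions. Recurrence followed signal within the lists. The score percentile (the rank of an island's score within its own library, from 0 to 100) had a median over regions of 41.4 for regions in 6 libraries, 50.6 for those in 9 to 11 and 91.6 for those in all 15. The merged regions had a median width of 5400 bp (interquartile range 4000 to 7800 bp, from 400 to 33200 bp) and were built of islands with a median width of 2100 bp. Regions in all 15 libraries had a median width of 2600 bp, but the rule itself removes wide regions, and the 119 intragenic regions left out for broad islands had a median of 15 libraries and a median width of 15600 bp. In 368 regions no library had a broad island, and in 192 regions no single base was covered in 6 libraries, so that their recurrence rests on islands that lie side by side.

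**Figure D1:**
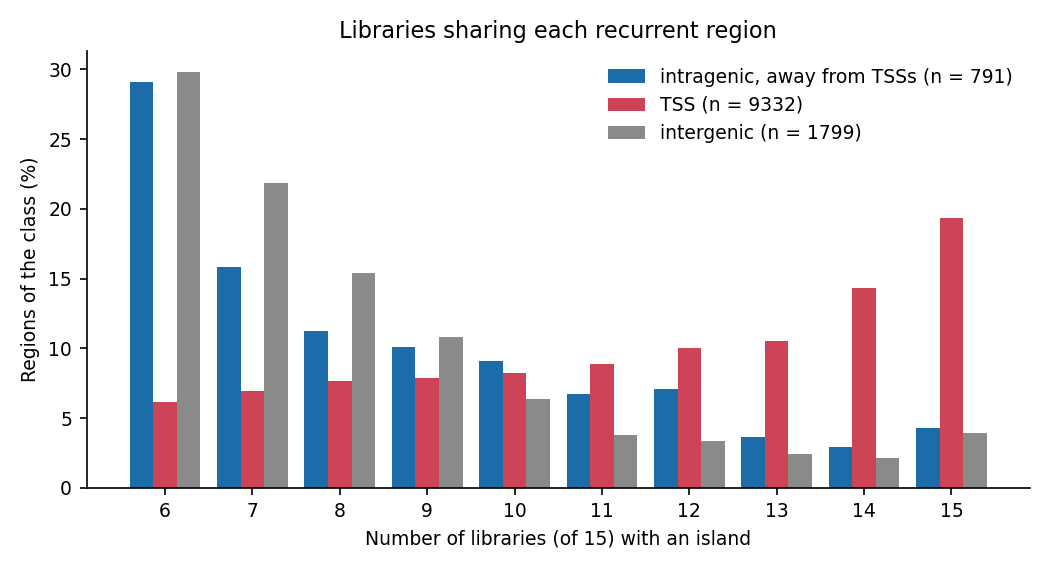
The number of the 15 libraries with an island in a region (x axis) is plotted against the percentage of regions of each class (y axis), for 791 intragenic regions away from TSSs, 9332 TSS regions and 1799 intergenic regions. The intragenic regions peak at 6 libraries, with 230 regions, whereas TSS regions peak at 15 libraries.

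The intragenic regions were assigned to 595 host genes. Of the 791 regions, 681 (86.1%) lay wholly in transcript bodies and the others only in part. Protein-coding genes hosted 601 regions (446 genes), lncRNA-type genes 155 and pseudogenes 35, and 107 genes hosted more than 1 region. Introns alone were covered by 504 regions (63.7%), while 181 (22.9%) overlapped coding sequence and 141 overlapped a UTR. The median distance to the nearest TSS was 14.996 kb (interquartile range 5.66 to 36.1 kb, maximum 366.9 kb). The nearest TSS region with recurrent H3K4me3 was a median of 95.2 kb away. RefSeq placed a transcript start within 1 kb of 58 regions where GENCODE had none, and 9 of these were curated transcripts.

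Host genes were long. The protein-coding hosts had a median length of 129.9 kb against 17.4 kb for all 21755 protein-coding genes, and 80 of 230 genes over 500 kb (34.8%) were hosts, against 195 of 19266 genes of up to 100 kb (1.01%). These are shares of genes, and a longer gene has more sequence in which a region can lie. Whether regions were denser in long genes was not tested. Per length, transcript bodies held 6.52 of the intragenic regions per 10 Mb, and the genome outside them held 12.7 recurrent intergenic regions per 10 Mb. These densities are not alike, since the 119 broad intragenic regions are left out of the first while the second has no such limit. The 1 kb around TSSs was not taken out of either length. The promoters of 205 of the 446 coding hosts (45.96%) had an island within 1 kb of a TSS in at least 6 libraries, close to the 44.9% of all coding genes. Over regions and libraries, the promoter of a coding host had an island in 44.5% of the cases in which its intragenic region had one, and in 33.8% of the cases in which it had none. The total number of islands in a library moves with both figures, and its part in that gap was not tested.

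The hosts were then compared with 7 gene lists. None of 81 hepatocyte secreted and metabolic genes, 23 circadian clock genes, 61 insulin, growth hormone and nutrient signalling genes or 43 Kupffer, endothelial and stellate cell genes was a host, although 76 of the hepatocyte genes had a promoter island in 6 or more libraries. These 4 lists span from 1.76 to 4.78 Mb of transcript bodies each, and over all coding genes 5.80 regions were found per 10 Mb and 2.05% of genes were hosts, so that lists of this size would hold few regions at the level of all genes. Of 79 liver transcription factors and nuclear receptors, 4 were hosts (5.06%). They were Nr3c1 (the glucocorticoid receptor), Zhx2 (a repressor of fetal liver genes), Cux2 (a factor enriched in female liver) and Hnf4g (a nuclear receptor related to Hnf4a), and the list held 5.22 regions per 10 Mb. Of 63 H3K4 methylation and chromatin genes, Smyd3, a SET-domain methyltransferase, was the only host, with 3 regions in 10 or 11 libraries. The list of large neuronal and adhesion genes also held other very long genes, such as Fhit and Wwox (7 and 5 regions). Of its 55 genes 26 were hosts, with 55 regions and 8.35 per 10 Mb. None of the regions in any of these lists had an unadjusted p under 0.05 for a difference between diets by the exact test described below.

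The gene with most regions was 2210408I21Rik, an uncharacterised gene with 13 regions over 478.2 kb of chromosome 13. Next came Gm37013 on chromosome 18 with 9, Tiam1 with 9, Fhit with 7 and Sfi1 with 5. The 9 regions of Gm37013 each overlapped 3 or 4 coding genes, of which 1 was taken as host. Tiam1 encodes a guanine nucleotide exchange factor for Rac, and its 9 regions had islands in 7 to 11 libraries each. Fhit encodes a diadenosine triphosphate hydrolase and spans a common fragile site over 1612 kb, and its regions had islands in 6 to 12 libraries. Wwox, an oxidoreductase gene that spans another such site, held 5 regions. The most recurrent of them (chr8:115287601-115304200, wholly intronic) had islands of 2800, 3000 and 1800 bp in SD, 9200, 1600 and 8000 bp in CR, 2200, 1800 and 2800 bp in HF, 3200 and 2800 bp in YD replicates 1 and 2, and 3200, 9600 and 3600 bp in RD. Only YD replicate 3 had none, and the widest islands were in RD replicate 2 and in 2 of the CR mice. The longest region, in Arl15, which encodes a small GTPase, spanned 33200 bp (chr13:113907401-113940600) and had an island in 14 libraries, at 1400 to 12400 bp. No island covered it whole in any library.

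The intragenic regions found in all 15 libraries included the strongest. Of these 34 regions, 19 had a median score percentile of at least 90, and 24 had no broad island in any library. Gm33838, a lincRNA gene, held a region (chr9:35304801-35305800, intronic) with islands of 600 to 1000 bp in all 15 mice and score percentiles of 99.9 or more. Chl1, which encodes a neural cell adhesion molecule, held one (chr6:103648001-103650000, overlapping 188 bp of coding sequence) with islands of 400 to 1400 bp, at percentiles of 99.8 to 99.9, while no library had an island at the Chl1 promoter. In Cdk5rap2, a centrosomal protein gene, an intronic region (chr4:70377401-70379400) had islands of 400, 1000 and 800 bp in SD, 600, 400 and 400 bp in CR, 600, 400 and 600 bp in HF, 1600, 800 and 400 bp in YD, and 400 bp in all RD mice. All 15 values ranked at a percentile of 99.4 or more, and the diets overlapped in width. How much repeated sequence adds to the scores of the Chl1 and Cdk5rap2 regions was not tested. The other most recurrent regions were in Cldn34d (a claudin family gene), Mdga2 (a synaptic membrane protein), 2700054A10Rik (a lincRNA, with 2 such regions), Slc30a4 (a zinc transporter), Dock2 (a Rac activator of leukocytes) and Gm21411. Their median percentiles were 98.6 to 99.9. In Slc30a4 the region covered 1568 bp of UTR, and in Dock2 the percentile fell to between 75.6 and 92.6 in the 3 HF mice while all other mice were at 97.2 or more. Over the 34 regions the median percentile was lowest in HF and CR libraries, at 66.7 in HF replicate 1, 66.3 in HF replicate 3 and 72.8 in CR replicate 2, and it was 88.0 or more in the other 12 libraries.

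**Figure D2:**
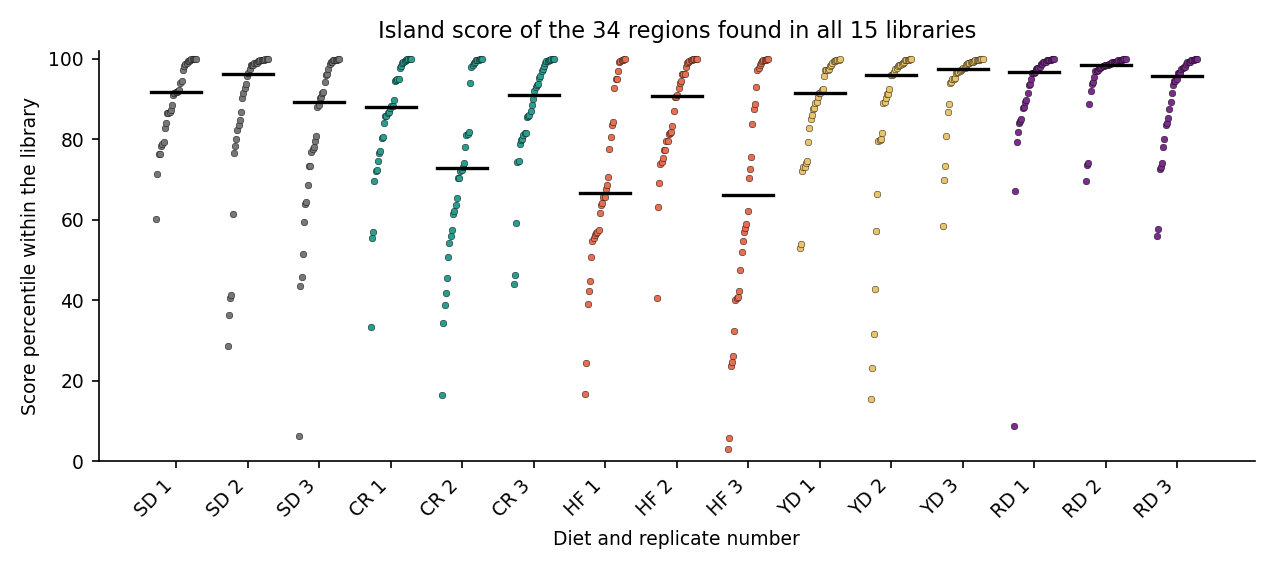
Each point is one of the 34 intragenic regions with an island in all 15 libraries, placed by the percentile of its score within a library (y axis) for each mouse (x axis), and black lines are medians. Medians lie at 88.0 or above in 12 libraries and between 66.3 and 72.8 in HF replicates 1 and 3 and CR replicate 2.

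The sequence under the intragenic regions resembled intergenic sequence more than promoters. In the central 1000 bp the median GC content was 40.9%, against 56.7% at TSSs and 39.8% in intergenic regions. The median ratio of observed to expected CpG was 0.16, against 0.69 and 0.13. Only 24 regions (3.03%) were CpG-rich (a GC content of at least 50% and a ratio of at least 0.6), compared with 62.5% of TSS regions and 2.22% of intergenic regions. The CpG-rich regions lay closer to an annotated TSS, at a median of 4.68 kb against 15.5 kb for the others, and 7 of the 24 had a RefSeq transcript start within 1 kb. Examples were Prdm2, a histone methyltransferase gene (chr4:143160001-143162800, GC 54.6%, ratio 0.96, 8 libraries), and Sf3b5, a splicing factor subunit gene (chr10:13007201-13010200, GC 57.1%, ratio 0.90, 14 libraries), both with a RefSeq transcript start inside the region. The third was in Fam172a (chr13:78162801-78164400, GC 64.8%, ratio 0.86, 6 libraries). In these 24 regions the median number of libraries was 8, as in the other 767.

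Motif letters were searched on both strands of the same 1000 bp, and none of the letter strings contains another. The SP1/KLF letters GGGCGG were found in 11.1% of intragenic regions, 73.3% of TSS regions and 7.78% of intergenic regions, and the ETS letters CCGGAAG in 4.68%, 26.4% and 3.56%. The FOXA letters TGTTTAC, which belong to pioneer factors of liver, were found in 14.8%, 9.84% and 15.5%. The C/EBP letters TTGCNNCAA were in 9.36%, 6.84% and 13.7%, and the HNF4A letters CAAAGTCCA in 1.39%, 1.29% and 1.61%. For the CREB letters TGACGTCA the shares were 0.885%, 3.09% and 0.611%.

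Of the 791 regions, 4 had a tRNA gene of RefSeq within 1 kb. They were in Olfr750 (12 libraries, 3 tRNA genes), Gm11290 (10 libraries, 2), Mrpl58 (6 libraries, 3) and Gm15738 (6 libraries, 1). Transfer RNA genes are transcribed by RNA polymerase III, and those in use are known to be flanked by H3K4me3. Their CpG ratios were 0.57 to 0.81, above the median of 0.16.

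Repeated sequence was common under the intragenic regions. The percentage of 31-base words that occur more than once in the genome had a median of 8.35%, against 0% at TSSs and 11.4% in intergenic regions, and it exceeded 50% in 72 regions (9.10%), against 5.50% of intergenic and 0.954% of TSS regions. It was highest where the most libraries agreed, with a median of 22.0% for regions in all 15 libraries against 8.14% for those in 6. The authors kept only reads with a MAPQ (mapping quality) of at least 1. The part of reads with more than 1 possible position that remained in these islands was not tested. Words are counted as exact matches, so copies that differ within a word are missed, and families of repeats were not searched. Mitochondrial sequence did not exceed 10% of the words in any region.

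**Figure D3:**
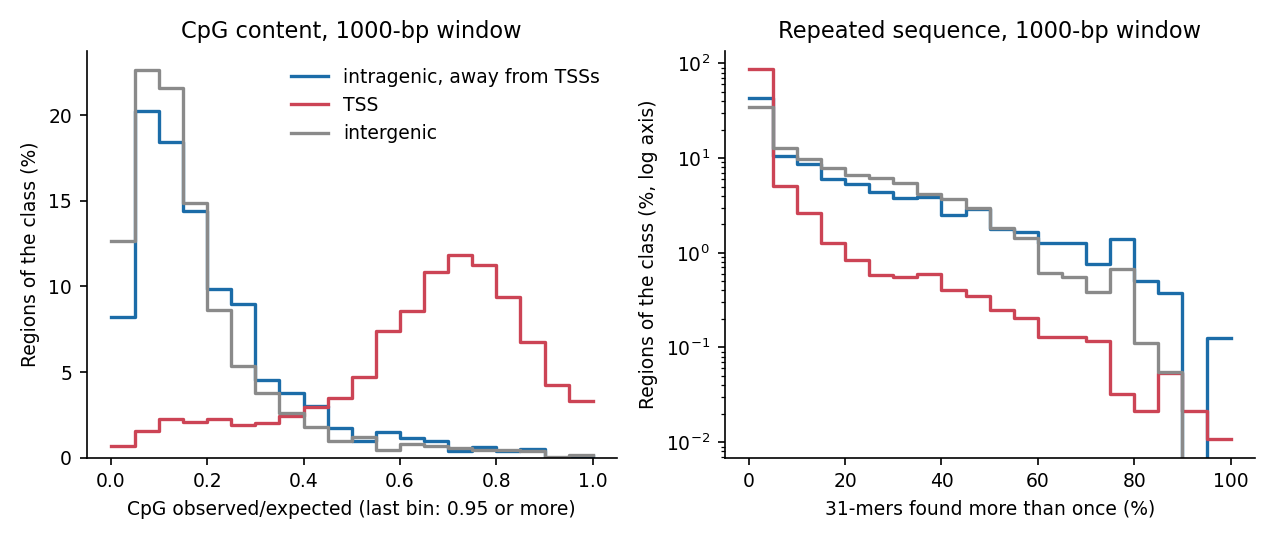
Percentage of regions of each class (y axes, logarithmic on the right) by the ratio of observed to expected CpG (left) and by the percentage of 31-base words found more than once in the genome (right), in the central 1000 bp. The intragenic and intergenic lines lie together at low CpG, with medians of 0.16 and 0.13, apart from the TSS regions at 0.69.

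Genes of zinc finger proteins were frequent among the hosts, a group that was chosen after the values were seen. Genes named Zfp with a number, most of which encode DNA-binding repressors of the KRAB family, held 44 regions in 36 of 365 genes (9.86%), against 446 of 21755 coding genes (2.05%). This was 40.4 regions per 10 Mb. Of these 44 regions 21 overlapped coding sequence, 4 were in all 15 libraries, and the median share of repeated words was 27.5%. Vomeronasal receptor genes (Vmn), which belong to pheromone sensing and have many close copies, held 22 regions in 19 of 331 genes, or 42.0 per 10 Mb, and olfactory receptor genes 4 in 1093. The densest 3 Mb of the genome lay on chromosome 4, where 27 regions in 16 hosts started between 145414401 and 147840201. In this stretch 22 of 27 regions had over 50% repeated words, of 72 in the genome, and 6 were in all 15 libraries. Zfp600 held one of them (chr4:146166801-146168600), with islands of 1400, 1600 and 1600 bp in SD, 1600 bp in all CR and HF mice, 1800, 1800 and 1400 bp in YD and 1600, 1800 and 1400 bp in RD. No library had an island at the Zfp600 promoter, and 74.7% of the words in this region occur more than once. Over the regions of this stretch, an island was present in 65.4% of cases for the SD mice, 77.8% for CR, 76.5% for HF and 54.3% for YD, and 84.0% for RD. The order of the diets was the same as over all 791 regions.

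The first question on diet was how many of the 791 intragenic regions each mouse carried. The 3 SD mice had an island in 607, 376 and 274 of them and the CR mice in 455, 371 and 708. The counts were 622, 656 and 226 in HF mice, 330, 342 and 331 in YD mice and 454, 697 and 422 in RD mice. The mean share of the SD mice was 52.97% ± 21.6 (standard deviation, n = 3, as for all diets), and that of the CR mice 64.6% ± 22.2. HF mice had 63.4% ± 30.2, YD mice 42.3% ± 0.84 and RD mice 66.3% ± 19.01. All 4 other diets overlapped with SD. The CR and RD mice did not overlap with the YD mice. Over all recurrent regions the CR mice (70.1% to 95.3%) and the RD mice (57.8% to 76.1%) also lay above the YD mice (at most 52.1%). The same libraries were rich in islands of every kind away from TSSs. The share of intragenic regions differed from that of intergenic regions by -6.29 to 11.5 percentage points in a library, but from that of TSS regions by up to 66.9 points, in HF replicate 3, which had an island in 28.6% of intragenic and 95.4% of TSS regions. RD replicate 2 differed the other way, with 88.1% against 71.9%. The highest share in CR and in RD was that of the longest list of that diet. Library names of the form ChIP and PATChIP were spread unevenly over diets. Within the PATChIP form the means were 52.2% for 2 CR mice, 55.8% for 2 HF mice and 57.4% for 1 RD mouse. Within the ChIP form all SD and YD mice were as above, and the values were 89.5% for 1 CR mouse, 78.6% for 1 HF mouse and 70.7% for 2 RD mice. The part of the name form in the shares was not tested.

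**Figure D4:**
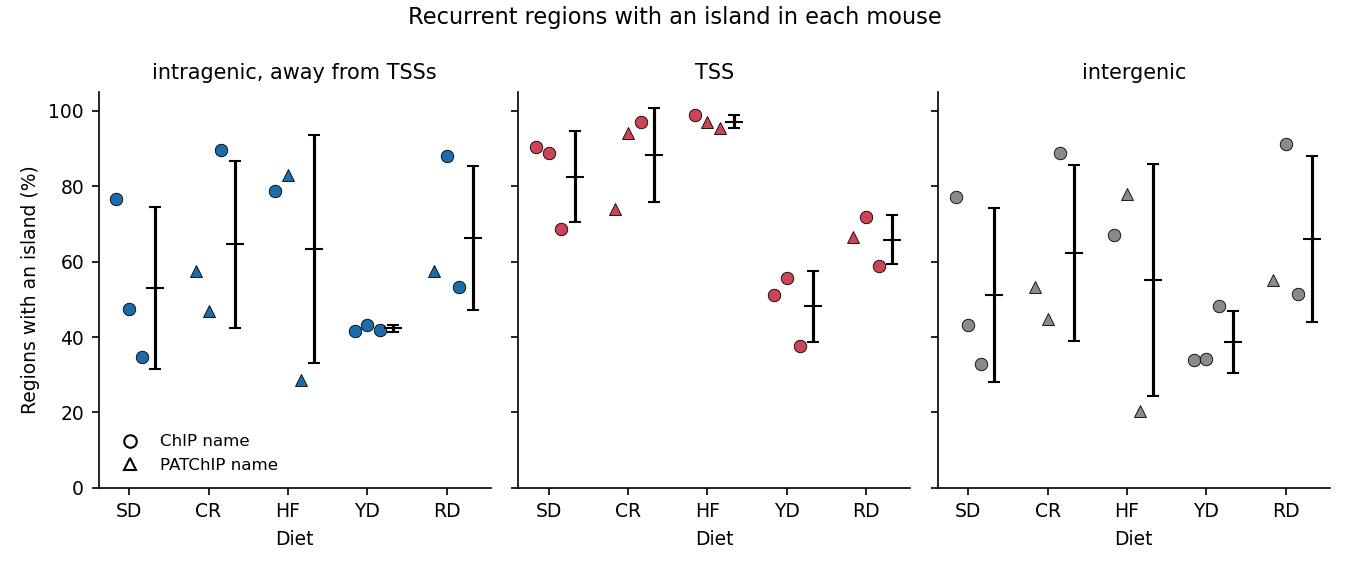
Percentage of recurrent regions with an island (y axis) in each mouse, by diet (x axis), for the 3 classes of regions, with circles for ChIP and triangles for PATChIP library names and bars for the mean and SD of 3 mice. The intragenic shares of the YD mice lie between 41.7% and 43.2%, and those of the other diets range from 28.6% to 89.5%.

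Presence of each region was then tested across the 5 diets. An exact permutation test compared the number of mice with an island per diet with all arrangements of the same number of islands over the 15 mice, for regions in 6 to 12 libraries, since regions in 13 or more cannot pass. After Benjamini-Hochberg adjustment over all 7568 regions tested, none of the 705 intragenic regions tested passed 0.05, as was so for all recurrent regions (0% called), and the smallest adjusted p was 0.199. In simulated data, diet differences set on purpose did not pass this adjustment either, so the absence of adjusted calls does not show that presence was alike between diets. At an unadjusted p under 0.05, 10 of 705 intragenic regions (1.42%) passed. The share was 11.7% for all recurrent regions, 16.4% for TSS regions (852 of 5205) and 1.40% for intergenic regions (23 of 1645). Of 7368 simulated regions with islands placed at random over the mice, 92 (1.25%) had an unadjusted p under 0.05 by the same test. The share at the intragenic regions was lower than at TSSs at each number of libraries, with 0.90% against 15.7% at 6 to 8 libraries, 1.32% against 14.4% at 9 or 10, and 3.67% against 18.8% at 11 or 12. These shares are descriptions, and the difference between classes was not tested.

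No YD mouse had an island in 9 of these 10 regions. Over all intragenic regions, 194 (24.5%) had no island in any YD mouse, against 84 for SD, 25 for CR, 35 for HF and 44 for RD. The YD lists were among the shortest, with 7825, 9405 and 10906 islands. When the 7825 highest-scoring islands of each list were used, 215 regions remained under the rule. The mean share of these with an island was 69.5% in YD and 57.4% in SD. That cut keeps the whole list of YD replicate 1 and removes the lower-scoring islands of longer lists. The part of list length in these 9 regions was not tested. Camta1, a calmodulin-binding transcription activator, held an intronic region (chr4:151613001-151617400) with islands of 3600, 3000 and 1800 bp in the CR mice and 2200, 1400 and 2000 bp in the HF mice, and none in SD, YD or RD. Mrpl58 encodes a peptidyl-tRNA hydrolase of the mitochondrial ribosome. Its region crosses the end of the gene (chr11:115411801-115414800), with 874 of 3000 bp inside it, all of it UTR. The region had islands of 2600, 400 and 400 bp in CR and 3000, 1400 and 2200 bp in HF, and none in the other 9 mice. Both had an exact permutation p of 0.0020, which is the smallest possible for a region in 6 libraries, and an adjusted p of 0.199. Camta1 islands ranked at percentiles of 16.4 to 66.9, so they were not among the strong islands of these libraries. The Tmem44 region (chr16:30509601-30512000) lay mostly outside the gene, with 146 of 2400 bp inside it. It had islands in 2 SD, 3 CR and 3 HF mice and none in YD and RD. B4galnt2, a glycosyltransferase gene (chr11:95885801-95890800), had islands in 3 CR, 1 HF and 3 RD mice. Both regions had an exact permutation p of 0.014 and an adjusted p of 0.225. Their lowest percentiles were 3.77 for Tmem44 (CR replicate 1) and 3.99 for B4galnt2 (RD replicate 3). Tbc1d1 encodes a Rab GTPase-activating protein that regulates glucose transporter traffic. Its intronic region (chr5:64341601-64345200) had islands of 1400, 1400 and 600 bp in SD, 1600, 3200 and 2400 bp in CR and 800, 2000 and 1800 bp in HF, while no YD mouse and only RD replicate 1, with 1200 bp, had one. A region of 2210408I21Rik (chr13:77307001-77313600) was present in 3 SD, 3 CR, 1 HF, 0 YD and 3 RD mice. Both had an exact permutation p of 0.020 and an adjusted p of 0.236. The other 4 regions were in Gm32772, Fbxl22, Ppm1h and Ctif, each with an unadjusted exact permutation p of 0.044. The first 3 had no island in any YD mouse, and Ctif, a translation initiation factor gene, had none in any RD mouse.

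Pairs of diets were compared by counting regions gained or lost, that is, regions found in 2 or 3 mice of a diet and in 0 mice of the diet it was compared with. A comparison of 3 mice with 3 cannot give an exact p under 0.1, so these counts are not tests. CR gained 56 and lost 14 of the 791 intragenic regions against SD, where 2.62% of all recurrent regions were gained and 0.573% lost. HF gained 54 and lost 15 (2.57% and 0.806% of all). YD gained 29 and lost 85 (0.648% and 18.9% of all). RD gained 61 and lost 26 against SD (1.99% and 7.05% of all), and against YD it gained 112 and lost 8 (10.3% and 0.523% of all). The intragenic share was thus 7.08% for CR gains, 6.83% for HF gains, 10.7% for YD losses, 7.71% for RD gains and 14.2% for RD gains against YD. In intergenic regions these shares were 7.17%, 6.56%, 12.9%, 7.56% and 17.9%. The comparisons with SD share the SD mice, and the 2 comparisons with YD share the YD mice.

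The direction of several of these counts rested on single mice. Without CR replicate 3, CR gained 10 and lost 63 regions against SD. Without RD replicate 2, RD gained 14 and lost 70 against SD, and gained 28 and lost 36 against YD, and without RD replicate 1 it gained 29 and lost 40 against SD. Without HF replicate 1 or 2, HF gained 10 and lost 32, or gained 11 and lost 45, and without SD replicate 1 or 2, YD gained 79 and lost 17, or gained 37 and lost 28. Without CR replicate 1, CR gained 22 and lost 22. A diet with 2 mice must have both to gain a region and needs only those 2 empty to lose one, which moves a count toward losses in the diet that lacks a mouse. When the 7825 highest-scoring islands of every list were used, 215 intragenic regions remained under the rule, and the splits against SD became 9 gained and 13 lost for CR and 4 and 24 for HF. YD then gained 18 and lost 2, and RD gained 18 and lost 7 against SD and 1 and 3 against YD. In this setting losses did not exceed gains in YD against SD, nor gains losses in RD against YD. The cut keeps the whole list of YD replicate 1 but removes the lower-scoring islands of longer lists, and the regions are not the same set. The part of list length in these splits was therefore not tested.

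**Figure D5:**
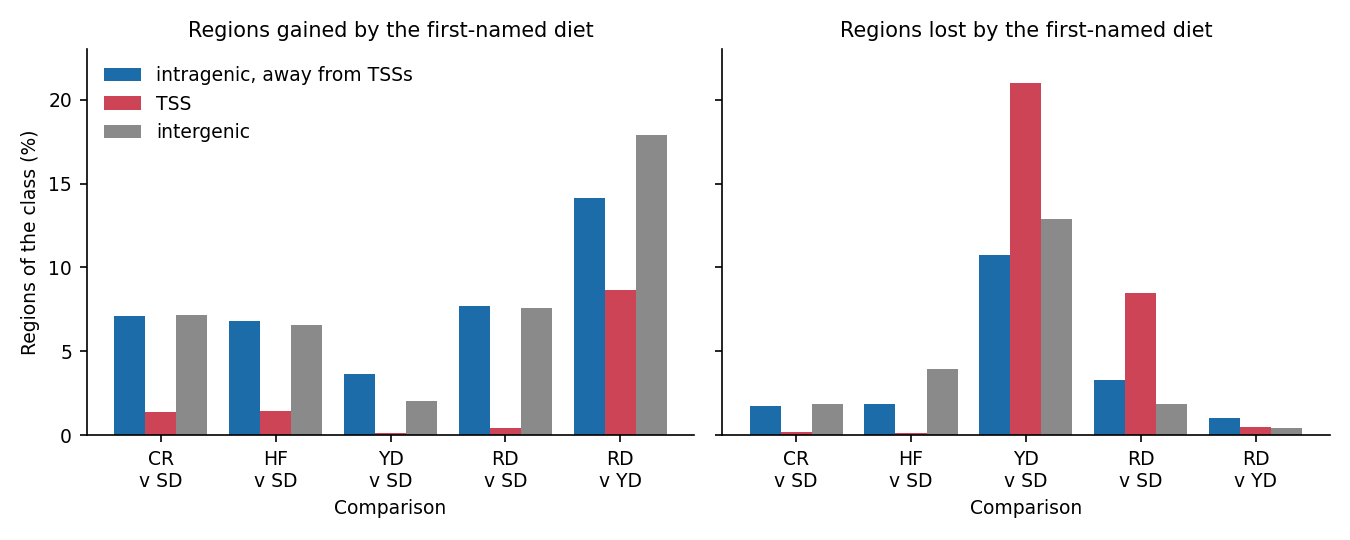
Percentage of regions of each class (y axes) that the first-named diet gained (left) or lost (right) in each of 5 comparisons (x axes), where a region is gained if 2 or 3 mice of the first diet and 0 of the second have an island, and lost in the opposite case. Intragenic bars follow the intergenic ones in both directions, with 14.2% and 17.9% gained in RD against YD, and TSS bars are highest for losses in YD and RD against SD.

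In some regions the contrast was complete, with an island in 3 mice of a diet and 0 of the other diet. Against SD, CR had 15 such gains and 4 losses among the intragenic regions, where 0.889% and 0.116% of all recurrent regions were gained and lost. HF had 15 and 2 (1.22% and 0.141% of all), YD 0 and 11 (0.0498% and 6.49% of all) and RD 22 and 5 (0.756% and 1.96% of all). RD had 37 and 0 against YD (3.12% and 0.0581% of all). The intragenic share was thus 1.90% for CR gains, 1.90% for HF gains, 2.78% for RD gains and 4.68% for RD gains against YD. In intergenic regions these shares were 2.22%, 1.17%, 3.06% and 6.11%. The 11 YD losses are 1.39% of the intragenic regions, below the 2.61% of intergenic regions and the share of all recurrent regions. The highest-scoring regions with a complete contrast are given for each comparison. In Rgs20, a regulator of G-protein signalling, an intronic region (chr1:4983201-4994200) had islands of 2000, 2000 and 4000 bp in CR and none in SD. It also had islands in 2 HF, 1 YD and 3 RD mice, with 11000 bp in RD replicate 2. In the lincRNA gene 4930401C15Rik (chr10:25795201-25801000) the SD mice had islands of 2000, 2200 and 1800 bp, no CR or HF mouse had one, and 1 YD and 2 RD mice did. The region of Gm14230 (chr2:156825201-156834600), also a lincRNA gene, lay mostly outside the gene, with 1552 of 9400 bp inside it. There the SD mice had no island. The HF mice had islands of 3800, 4600 and 1800 bp and the RD mice of 2800, 3400 and 3200 bp. It also had islands in 2 CR mice and 1 YD mouse, and the island of HF replicate 3 ranked at a percentile of only 1.48. Each of these 3 regions had an exact permutation p of 0.110 and an adjusted p of 0.331 over the 5 diets.

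Fbxl22 encodes an F-box protein, and its CpG-rich region (chr9:66510401-66512800, GC 63.8%) overlaps 373 bp of coding sequence. Its islands spanned 1400, 800 and 1800 bp in SD, 800, 2400 and 1600 bp in CR, 1400 bp in all HF mice, and 600 and 1400 bp in RD replicates 2 and 3, and no YD mouse had one. The Fbxl22 promoter had no island in any library. Ctif (chr18:75663401-75667000, intronic) had islands of 1200, 1600 and 3000 bp in SD, 1800, 2400 and 2200 bp in CR, 3400, 2000 and 3600 bp in HF and 2600 and 2000 bp in YD replicates 1 and 2, and none in RD. Its host promoter had an island in 12 libraries. In Sntg1, a syntrophin gene, the region that RD had and YD lacked (chr1:8768001-8776200) showed islands of 2200, 6400 and 2600 bp in RD, none in YD and islands in 2 mice each of SD, CR and HF, with an exact permutation p of 0.272 over the 5 diets.

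The regions in the 4 transcription factor hosts had an island in at least 1 mouse of each diet. Nr3c1 (chr18:39506401-39512200) had islands in 1 SD, 3 CR, 2 HF, 3 YD and 1 RD mice, at 800 to 4600 bp and percentiles of 4.53 to 81.3, with an exact permutation p of 0.380. Zhx2 (chr15:57776601-57781800) had islands in 1 SD, 1 CR, 2 HF, 3 YD and 2 RD mice, and Cux2 (chr5:122017201-122020000) in 2, 2, 2, 1 and 1, in the same order of diets. Their unadjusted exact permutation p were 0.757 and 1.0. The host promoters of Nr3c1 and Zhx2 had an island in 14 libraries each and that of Cux2 in none, but RefSeq places a Cux2 transcript start 10 bp from this region. In Smyd3, the region chr1:179257601-179270800 was absent in all YD mice and present in 2 SD, 2 CR, 3 HF and 3 RD mice (exact permutation p of 0.110), whereas the other 2 regions of the gene had islands in at least 1 YD mouse.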

How the data were processed

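H3K4me3 PAT-ChIP-seq of 15 mouse livers, 1 library per mouse and 3 mice per diet, was analysed from the island lists. The authors sequenced single reads of 50 bp, aligned them to mm10 with BWA, and filtered them (SAMtools) for a MAPQ of at least 1, for duplicates and for chromosomes 1 to 19 and X. They called islands per library, without pooling, with SICER2 (windows of 200 bp, gaps of 400 bp, fragments of 200 bp, an FDR of 0.05); tool versions are not given in the sources used here. The score deposited by the authors for each island adds up, over the windows enriched, the negative natural log of a Poisson probability. It is not scaled between libraries, and was used only as a rank within a list. An input control and read counts per island were not used here, so errors are those between mice and no counting interval is given.

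Reads per library were recovered from the steps between scores of islands of 1 window, with an effective genome fraction of 0.74, and lay within 0.00046 of whole reads for all 15 lists. The annotation was GENCODE M21 (53843 genes, 139486 transcripts) and sequence came from GRCm38.p6, the mm10 assembly, with transcript starts and tRNA genes from RefSeq. Calculations used Python 3.11.15 with pandas 2.3.3, numpy 2.4.6 and scipy 1.17.1, and plots matplotlib 3.10.9. The host was 1 annotated gene per region. CpG-rich means GC of at least 50% and a ratio of at least 0.6 in 1000 bp. The exact test used the sum over diets of the squared number of mice with an island divided by the mice per diet, over all arrangements, adjusted by Benjamini-Hochberg over regions in 6 to 12 libraries, and was tested on simulated data, where it gave low p-values to the differences set but none passed the adjustment.

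The regions, gene lists and comparisons were chosen with earlier results of these data known. Named regions were the 10 in most libraries (ties by score percentile), the highest-scoring all-or-none region of each comparison and direction, the 6 with the lowest p, up to 3 per gene list, the 5 genes with most regions, those nearest the 1 kb limit, and the 3 longest and 3 most CpG-rich; Zfp600, Hnf4g, the gene families, the tRNA regions, the chromosome 4 stretch and the other regions with a p under 0.05 were named after their values were seen. Alternatives were TSSs within 3 kb, coding TSSs only, 9 libraries, equally long lists, islands of at least 600 bp, no limit on broad islands, coding bodies only, coverage of 50%, chromosomes 1 to 19, the replicate block, all 3 mice, and each mouse left out.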

Additional observations from a re-analysis of the deposited data

How the results depend on the processing

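0 intragenic regions had an adjusted p under 0.05 in each setting that was run, which says nothing about stability, since differences set in simulated data did not pass the adjustment either. Counts moved with the lists and the rule. Replicate numbers did not pair the mice (correlations of -0.151 to 0.0927 over 30 pairs of mice with the same number, 1 of 15 closest to its own number), and with the replicate block 6 intragenic regions had an unadjusted p under 0.05 in place of 10. With TSSs of protein-coding transcripts alone there were 1296 regions, 48 with an unadjusted p under 0.05, 236 gained or lost in YD and 145 in RD against SD, 200 in RD against YD, and a YD share of 40.8%. With 9 or more libraries there were 347 regions, 6, and 8 (CR), 7 (HF), 22 (YD), 10 (RD) and 17 (RD against YD) gained or lost, with a YD share of 62.6%. With equally long lists there were 215, 4, and 22, 28, 20, 25 and 4, with a YD share of 69.5%, and with islands covering 50% of a region 110, 1, and 7, 4, 19, 11 and 13, with a YD share of 38.5%. When an island in 3 mice of a diet and 0 of the other was required, the counts were 19, 17, 11, 27 and 37. The YD share was 41.4% for islands of at least 600 bp and 49.2% with no limit on broad islands. Without the 2 longest lists together, a setting chosen after seeing the data, there were 527 regions, 21 gained or lost in HF, 55 in YD and 48 in RD against YD, and a YD share of 56.7%; CR then gained 9 and lost 47 and RD gained 9 and lost 55 against SD, and RD gained 17 and lost 31 against YD. Leaving out each mouse in turn gave 627 to 772 regions, 16 to 38 with an unadjusted p under 0.05 (unequal groups give the statistic more values), 43 to 158 gained or lost in CR, 38 to 149 in HF, 65 to 135 in YD, 57 to 180 in RD and 64 to 173 in RD against YD, and a YD share of 43.5% to 49.3%. Of the other alternatives 96 of 139 values, and of those with a mouse left out 150 of 195, stayed within the spread or 1.5 times the count. The cause of these changes was not tested, apart from the fewer islands, regions or mice that each setting leaves. Depth limits which islands are called: the reads behind a single island were not used here, so absence means not called at 5589269 to 15449854 reads.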
